A study of Homo sapiens with 8 samples.

Results

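The genes described here are 39 interferon-stimulated antiviral effectors, measured among 19892 genes in MDA-MB-231 cells, a mesenchymal, triple-negative human breast cancer cell line. They were chosen by name, as interferon-stimulated genes that belong to none of the IFIT, OAS, ISG15-conjugation, STAT and IRF, TRIM or RNA-sensor groups. All 39 were found in the expression table by their NCBI gene numbers. The 2 conditions were control siRNA and siRNA to ADAR1, the adenosine deaminase that edits double-stranded RNA, and each was assayed as Input (RNA-seq of gel-purified RNA pieces) and as Ribo-seq (sequencing of ribosome-protected fragments, called footprints here). This gave 4 groups of 2 libraries each: control Input, ADAR1 siRNA Input, control Ribo-seq and ADAR1 siRNA Ribo-seq. No interferon or other agent appears in the labels, and they leave out the siRNA sequence, its dose and the time of treatment. The labels do not say that the 2 replicates of a group were separate cultures, so each p-value reflects the spread between libraries alone, and that spread may be technical.

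Interferons are cytokines that cells release when they sense foreign or misplaced nucleic acid. Type I and type III interferons act through receptors and JAK kinases to induce genes with the interferon-stimulated response element (ISRE) in their promoters, whereas interferon-gamma acts mainly at the gamma-activated site (GAS). The genes induced in this way act at many steps of a viral life cycle: IFITM proteins hinder membrane fusion, BST2 (tetherin) holds budding virions on the cell surface, MX and GBP proteins are large GTPases that act on viral capsids or pathogen-containing compartments, and ISG20 and RSAD2 (viperin) act on RNA and nucleotides. ADAR1 edits endogenous double-stranded RNA and thereby limits its sensing, which is why such genes are measured in cells with reduced ADAR1.

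In the RefSeq annotation of GRCh38.p14, several members are neighbours of a relative. IFI44L (chr1:78620448-78646145) lies next to IFI44 (chr1:78649789-78664078), and GBP3, GBP1 and GBP2 lie between chr1:89006680 and chr1:89126114. IFITM2, IFITM1 and IFITM3 lie on chromosome 11, MX1 (chr21:41420558-41459214) and MX2 on chromosome 21, DDX60 and DDX60L on chromosome 4, and SAMD9 and SAMD9L on chromosome 7.

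The promoters of the members were read first, since the members were defined by name and not by sequence. RefSeq promoter windows (GRCh38.p14, 250 bases before to 50 after each annotated start) were found for 33 of the 39 genes, in 46 windows, and IFITM2, LAMP3, MX2, GBP2, ZNFX1 and PARP10 had no entry. The core of the ISRE, spelled as GAAA, any 2 bases and GAAA again, was searched on both strands (TTTC, any 2 bases and TTTC on the other) and was present in 24 of the 33 genes (72.7%) and in 28 of their 46 windows (60.9%). The same core was present in 1195 of 27305 genes (4.38%) and 1255 of 35116 windows (3.57%) in the whole table. The GAS core TTCNNNGAA, which reads the same on both strands, was present in 12 of the 33 genes (36.4%), against 2560 of 27305 (9.38%). A GAS match may overlap an ISRE match, as it does in BST2. The 9 genes with a window but no ISRE match were IFI35, CMPK2, HELZ2, SAMD9L, TDRD7, SP100, SP110, BATF2 and XAF1. A match to these letters is a description of the sequence, and not evidence that a factor binds there in these cells.

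The windows around the ISRE core are printed for 7 genes whose footprint, RNA or translational efficiency values are described below, 5′ to 3′ on the strand of the gene, with the ISRE letters in capitals. IFI44 lies on chromosome 1 (plus strand, chr1:78649746-78649788), and the last base of its match is at -9, counted from the annotated start as 0. Its neighbour IFI44L (plus strand) carries the same 60-base stretch in 2 copies, at chr1:78620259-78620318 and chr1:78620350-78620409, with the first base of the core at -164 and -73. ISG20 is at chr15:88638922-88638981 (plus strand), and IFITM1 at chr11:313975-314034 (plus strand). IFITM3, on the minus strand of the same cluster, has cores at -52 and -35, and the nearer to the start is shown (chr11:320861-320920). BST2 has overlapping cores at -130 and -124 (minus strand, farther core in chr19:17405726-17405785), and LGALS3BP has a single core at -58 (minus strand, chr17:78979947-78980006).
IFI44: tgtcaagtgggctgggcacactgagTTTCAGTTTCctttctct
IFI44L: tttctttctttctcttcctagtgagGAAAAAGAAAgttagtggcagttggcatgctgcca
ISG20: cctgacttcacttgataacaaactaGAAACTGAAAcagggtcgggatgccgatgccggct
IFITM1: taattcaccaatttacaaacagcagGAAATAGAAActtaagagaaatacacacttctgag
IFITM3: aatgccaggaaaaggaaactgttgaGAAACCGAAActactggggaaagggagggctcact
BST2: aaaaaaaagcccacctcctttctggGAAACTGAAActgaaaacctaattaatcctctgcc
LGALS3BP: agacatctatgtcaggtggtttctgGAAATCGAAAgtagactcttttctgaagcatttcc
In IFI44 the core is read on the opposite strand (TTTC first), and in the other 6 it is read on the strand of the gene. PARP9 and DTX3L, transcribed away from each other from neighbouring starts on chromosome 3, share 1 match, which begins at -41 from the start of PARP9 and -6 from that of DTX3L.

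**Figure D1:**
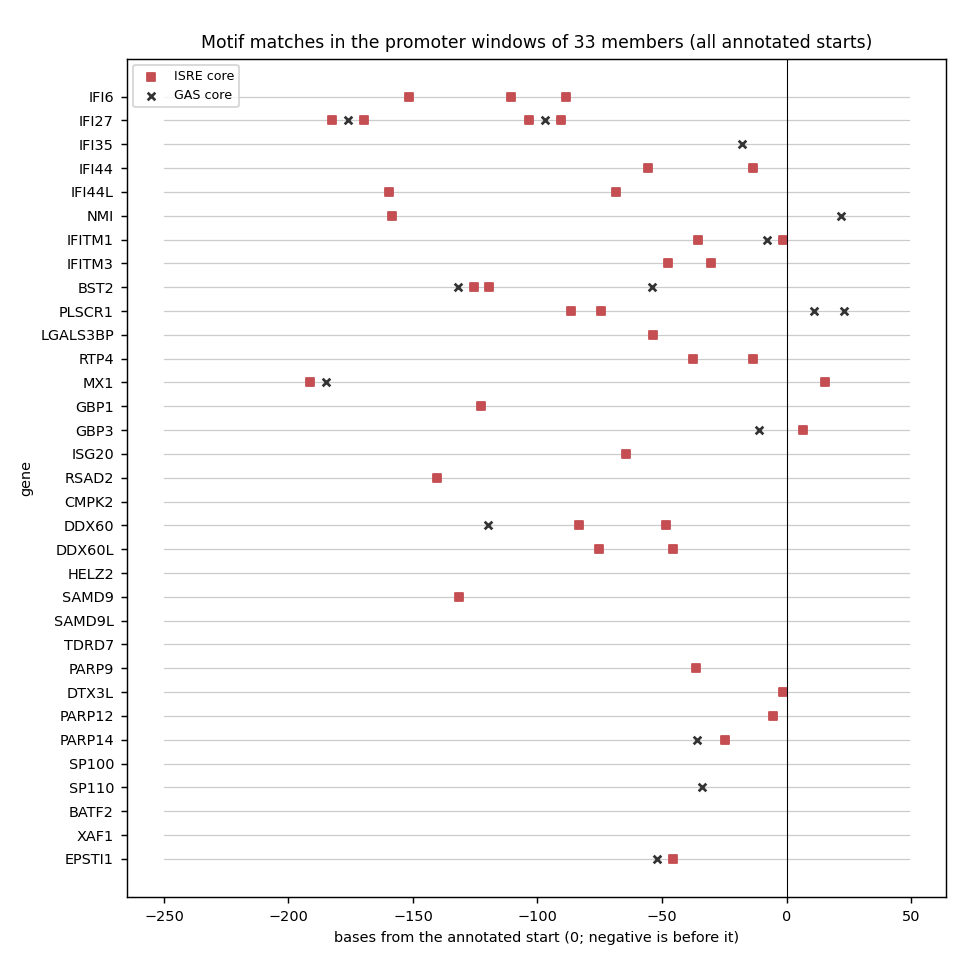
Positions of ISRE core (squares) and GAS core (crosses) matches in the RefSeq promoter windows of 33 members, in bases from the annotated start, with all annotated starts of a gene drawn on 1 line. Matches to the ISRE core were found in 24 of the 33 genes, and several genes, IFI44L, IFI6 and IFI27 among them, hold more than 1.

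The libraries held 15732757 to 17153716 estimated counts for Input and 10492223 to 14875465 for Ribo-seq. ADAR, the targeted gene, was at 106 and 110.2 TPM (a level corrected for gene length and library size) in the control Input libraries and 14.8 and 30.6 with ADAR1 siRNA. In Ribo-seq it was at 19.1 and 20.3 TPM in the controls and 1.55 and 8.41 with ADAR1 siRNA, where replicate 1 was lower than replicate 2. The edgeR log2 fold change of ADAR was -2.26 ± 0.32 (SE) in RNA (adjusted p = 0.0527) and -2.04 ± 0.47 in footprints (adjusted p = 0.0485). The spread between the 2 ADAR1 siRNA libraries was wider than between the controls: the chi-square per gene between replicates was 16.9 against 1.90 for Input and 32.7 against 7.05 for Ribo-seq. Of the markers, VIM was at 4441 to 4694 TPM in Input, and the luminal genes ESR1, PGR, CDH1 and FOXA1 were below 0.4 TPM in all 8 libraries. The other 5 of 9 luminal markers (KRT8, KRT18, ERBB2, EPCAM and GATA3) were expressed, and the 9 summed to 1383 to 1386 TPM in control Input and 1234 to 1348 with ADAR1 siRNA, and to 777 to 940.1 and 419 to 644 in Ribo-seq. The 9 immune markers summed to 236 TPM in both control Input libraries and 181 to 186 with ADAR1 siRNA, nearly all from CD68 (179 to 232), with PTPRC, CD3E, NKG7 and IL3RA below 0.4 TPM and MS4A1 listed at 0. In footprints, 1 of 8 mesenchymal markers (CAV1) and 1 of 4 tested endothelial and stromal markers (PDGFRB) were called higher, and 1 of 5 tested luminal markers (KRT8) lower. The part of these markers in the results below was not tested.

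Under control siRNA, the members ranged over more than 3 orders of magnitude in RNA. IFITM3 was the most abundant, at 588 and 644 TPM in the 2 control Input libraries, followed by LGALS3BP at 408 and 395, BST2 at 189 and 195 and IFITM2 at 187 and 178. The ranges of IFITM3 and LGALS3BP did not overlap, nor did those of LGALS3BP and BST2 or of BST2 and IFITM2. Next came SP100, a nuclear-body protein, at 82.3 and 79.6 TPM, then the GTPase GBP3 at 67.3 and 69.8 and the RNA-binding factor ZNFX1 at 66.0 and 64.8. At the low end, LAMP3, RTP4, RSAD2, BATF2, MX2 and EPSTI1 had control Input values between 0.575 and 2.20 TPM. CMPK2, a mitochondrial nucleotide kinase next to RSAD2, had 2 and 3 estimated counts in the control Input libraries and 1 and 0 with ADAR1 siRNA, was too low to be tested, and is left out of the counts below, which refer to 38 genes.

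**Figure D2:**
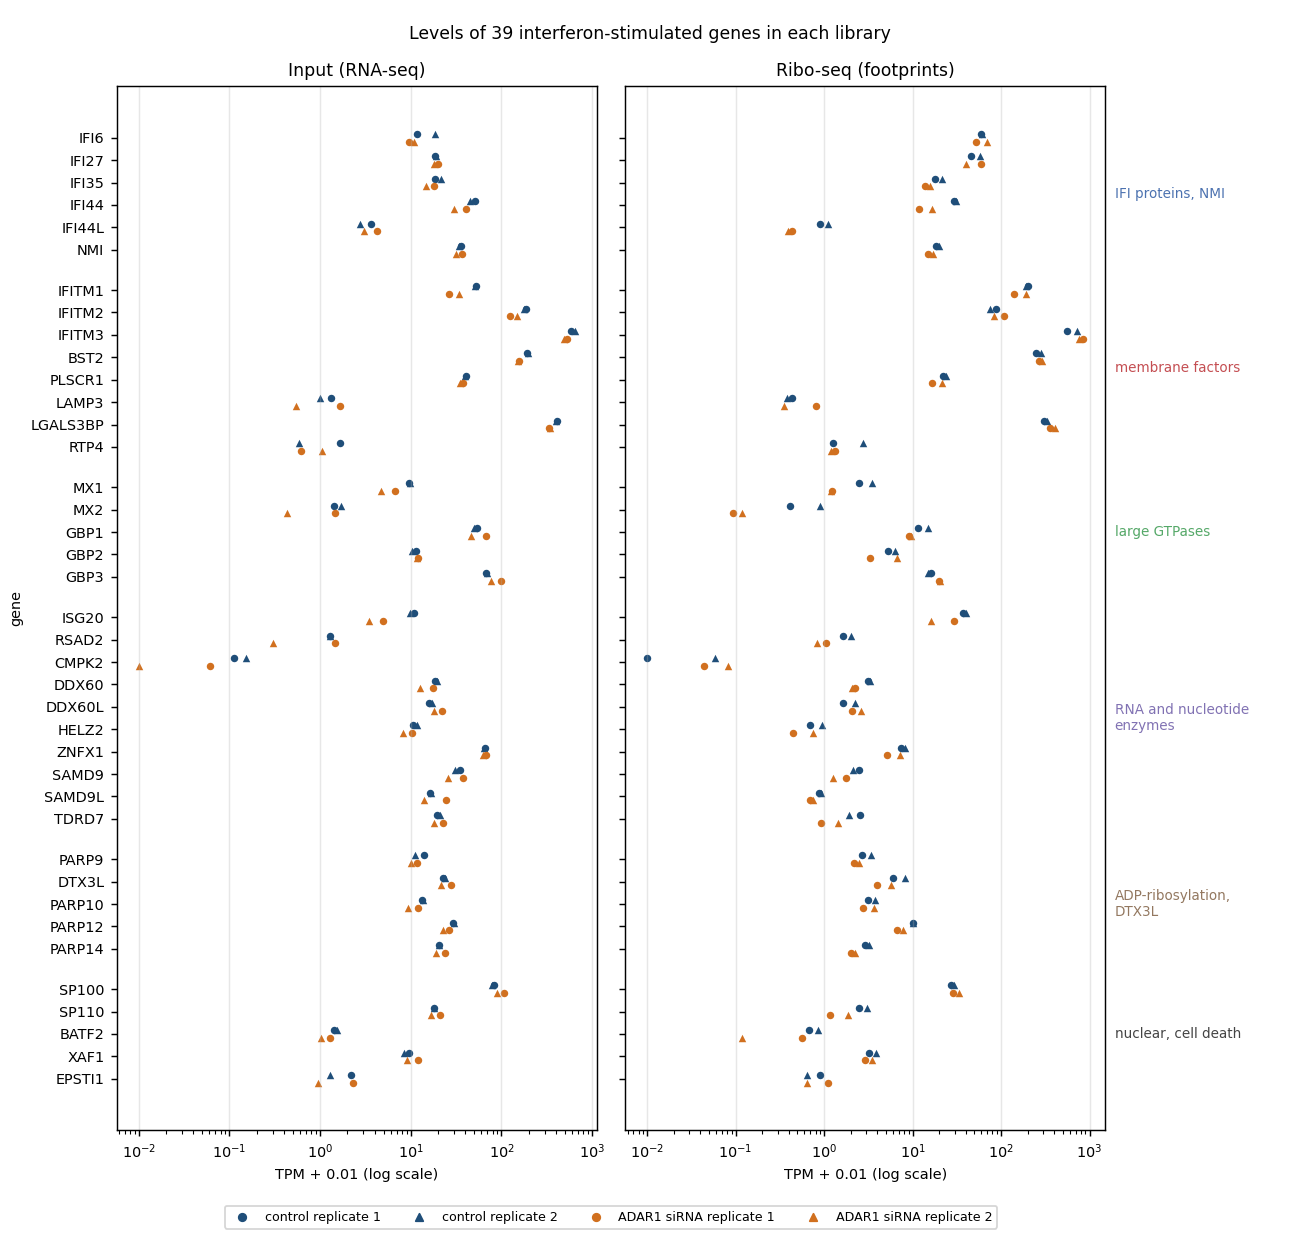
TPM of each of the 39 genes in each library (Input left, Ribo-seq right, log axes with a small constant added so that values of 0 can be drawn), grouped by role, with circles for replicate 1 and triangles for replicate 2 (controls blue, ADAR1 siRNA orange). IFITM3, LGALS3BP, BST2 and IFITM2 lead in Input, and for IFI44 and MX1 both ADAR1 siRNA footprint values lie below both controls.

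Translational efficiency, the ratio of Ribo-seq TPM to Input TPM as the authors deposited it, also differed among members. Mean control ratios ran from 0.0535 (SAMD9L) to 4.16 (IFI6), a narrower range than in RNA. The median of the 38 genes under control siRNA was 0.374, close to 0.384 for the 11711 genes in both tests, and 19 of the 38 lay above that median. IFI6, a small mitochondrial and endoplasmic reticulum protein, had the highest mean control ratio, with replicate values of 5.04 and 3.28, overlapping those of IFITM1 (3.89 and 3.77) and ISG20 (3.48 and 4.07). SAMD9L, a cytoplasmic growth and translation inhibitor, had the lowest, at 0.0524 and 0.0546, below its paralog SAMD9 at 0.0706 and 0.0696 and the helicase HELZ2 at 0.0650 and 0.0802. Genes of shorter counted length had higher ratios. This length was taken as the mean control Input count over the mean control Input TPM, and is not the genomic span. How far counts per TPM differed between the assays varied by gene. ISG20 had 379 counts at 37.4 TPM in control Ribo-seq replicate 1 and 108 at 10.8 in control Input replicate 1. For IFI44 these were 653 at 29.4 and 556 at 50.7. The order of genes in the ratio depends in part on this. Across the 38 genes the Spearman correlation of control translational efficiency with the counted length was -0.81, and across all genes in both tests it was -0.462. The points come from the same libraries and genes are not independent replicates, so the correlation is given as a description.

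**Figure D3:**
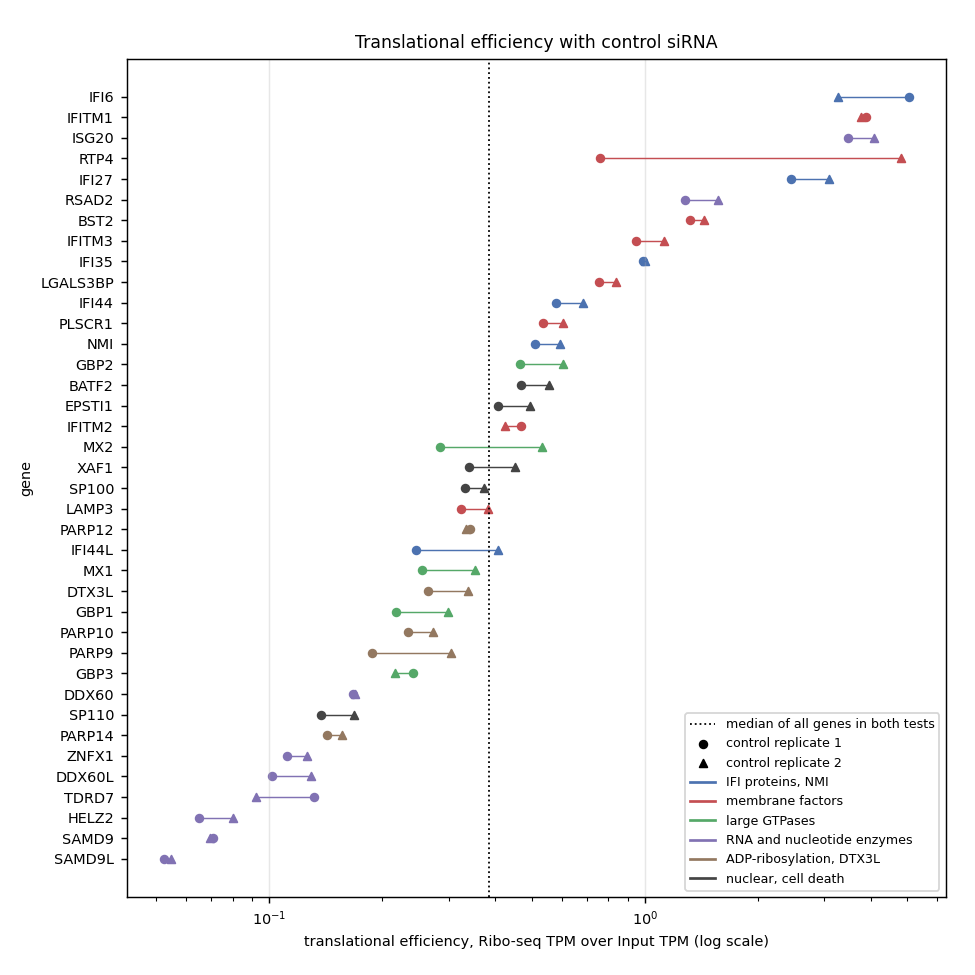
Translational efficiency (Ribo-seq TPM over Input TPM, log axis) of 38 members in each control replicate, in order of their mean, with the median of all genes in both tests as a dotted line at 0.384. IFI6, IFITM1 and ISG20 lie to the right, and SAMD9L, SAMD9 and HELZ2 to the left.

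The first comparison asked whether ADAR1 siRNA changed the RNA of these genes. No member passed the test in RNA in either direction: 0 of 38 were called higher and 0 lower at an adjusted p under 0.05 (edgeR quasi-likelihood test), where 0.0791% of all 12644 genes tested were called higher and 0.174% lower. DESeq2 and limma on log2(TPM + 1) also called 0, beside 3.55% and 0.00791% of all genes. At an unadjusted p under 0.05, 12 members were lower and 3 higher, against 13.5% and 11.8% of all genes. On scaled counts, both ADAR1 siRNA Input values lay below both controls in 18 of the 38 genes and above both in 4, against 29.7% and 28.5% of all genes. The fitted change was below 0 in 25 of the 38, against 49.4% of all genes, and its median was -0.25 on the log2 scale over the members and 0.0037 over all genes tested. That median depended on the library: relative to the control mean it was -0.01 in ADAR1 siRNA Input replicate 1, with 20 of 38 genes below 0, and -0.29 in replicate 2, with 32 below. Over the 32 members with a mean count of at least 50 the median was -0.0789, and with limma -0.152. Without ADAR1 siRNA Input replicate 1, 18 of 38 members were called (16 lower) beside 31.9% of all genes, and without replicate 2, 16 of 38 (10 lower) beside 42.1%, which is near the background share. In these fits the lone library is assumed to vary like the controls, and SAMD9L was called lower in the former and higher in the latter. In bulk samples such as these, fewer cells that express a gene and less RNA per cell cannot be told apart.

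The second comparison addressed the footprints. Of the 38 members, 2 were called lower (IFI44 and MX1) and 0 higher, where 1.67% of 12000 genes tested were called lower and 1.88% higher (3.54% in all). At an unadjusted p under 0.05, 9 members were lower and 3 higher, against 11.3% and 12.6% of all genes. DESeq2 called 1 member lower (IFI44) and 0 higher, beside 8.15% of all genes called in either direction. With limma on log2(TPM + 1), 0 members and 0.1% of all genes were called. Both ADAR1 siRNA footprint values lay below both controls in 20 genes and above both in 5, against 26.2% and 30.1% of all genes. The fitted change was below 0 in 27 of the 38, against 45.6% of all genes, and its median was -0.27 on the log2 scale over the members and 0.05 over all genes, and the 2 ADAR1 siRNA libraries gave -0.25 and -0.22. The number called was 0 of 38 without control Ribo-seq replicate 2 (0.621% of all genes), 7 of 37 without ADAR1 siRNA replicate 1 (15.3%) and 14 of 38 without ADAR1 siRNA replicate 2 (28.1%). Over all genes, the balance of calls depended on the scaling: 225 genes were called higher and 200 lower with TMM, 311 higher and 176 lower with upper-quartile scaling, and 211 higher and 259 lower with DESeq2 size factors.

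The third comparison set the footprint change against the RNA change in 1 model of all 8 libraries, which tests translational efficiency. No member was called (0 of 38 in either direction), where 0.0154% of 12953 genes were called higher and 0.0309% lower. At an unadjusted p under 0.05, 6 members were higher and 5 lower, against 13.2% and 9.48% of all genes. DESeq2 called IFITM3, BST2 and LGALS3BP higher and TDRD7 lower, beside 7.58% of all genes called in either direction. With limma on log2(TPM + 1), 0 members and 0.0232% of all genes were called. Without ADAR1 siRNA Ribo-seq replicate 2 edgeR called 7 of 38 (5 higher, 2 lower) beside 16.9% of all genes, and without replicate 1 it called LGALS3BP alone beside 3.81%. On scaled counts, both ADAR1 siRNA ratios lay above both controls in 10 genes and below both in 14, against 33% and 26% of all genes. The fitted change was below 0 in 25 of the 38, against 42.7% of all genes, and its median was -0.10 on the log2 scale over the members and 0.09 over all genes, and the 2 replicates gave -0.20 and -0.02. The 3 comparisons share libraries and are not independent of each other: 19 members were below 0 in both RNA and footprints, 8 were above 0 in RNA and below 0 in footprints, 6 were below 0 in RNA and above 0 in footprints, and 5 were above 0 in both. The 6 were IFI6, IFITM2, IFITM3, BST2, LGALS3BP and EPSTI1.

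**Figure D4:**
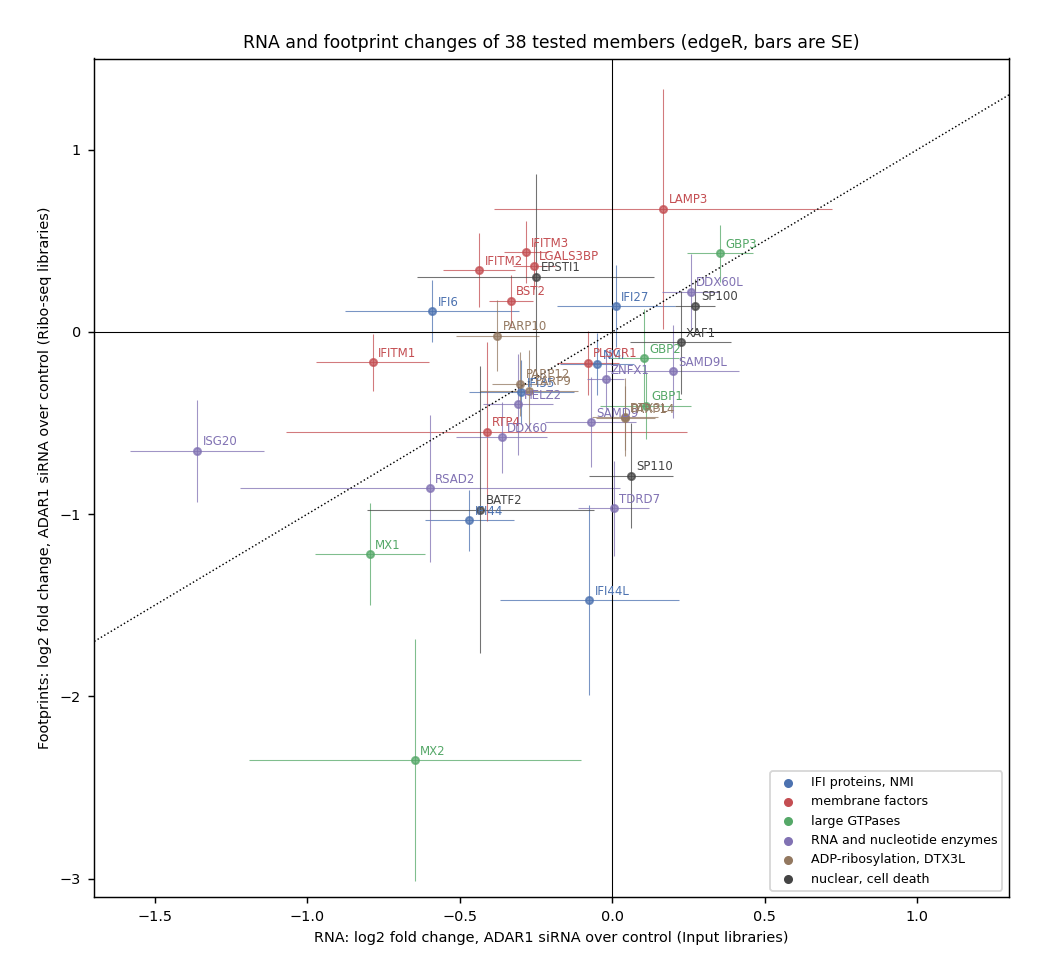
Log2 fold change in footprints (vertical) against log2 fold change in RNA (horizontal) for 38 members, ADAR1 siRNA over control, from edgeR, with bars of 1 SE and colours for roles; on the dotted line both changes are equal. IFITM2, IFITM3, BST2 and LGALS3BP lie left of 0 and above 0, and MX1, IFI44 and ISG20 lie below 0 on both axes.

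In the group of 6 made up of the IFI proteins and NMI, a binding partner of IFI35, 1 gene was called lower in footprints by edgeR. IFI44, a cytoplasmic protein strongly induced by type I interferon, was at 29.4 and 30.8 TPM in the control Ribo-seq libraries and 11.9 and 16.4 with ADAR1 siRNA. The groups did not overlap, and ADAR1 siRNA was 2.05-fold lower, a log2 change of -1.03 ± 0.17 (adjusted p = 0.0278). In Input, IFI44 was at 50.7 and 45.0 TPM in the controls and 40.5 and 29.7 with ADAR1 siRNA, also without overlap, but the log2 change of -0.47 ± 0.15 (adjusted p = 0.126) did not pass the test, nor did the difference between footprints and RNA (-0.54 ± 0.21). The footprint call of IFI44 was lost without control Ribo-seq replicate 2 (adjusted p = 0.0665) and with limma on log2(TPM + 1) (adjusted p = 0.0845).

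Its neighbour IFI44L, chosen for description after its values were seen, had footprints of 0.899 and 1.10 TPM in the controls and 0.424 and 0.380 with ADAR1 siRNA, while its Input values overlapped (3.65 and 2.72 against 4.27 and 3.01). Its footprint log2 change of -1.47 ± 0.52 (adjusted p = 0.126) was larger than that of IFI44 but rested on low levels and did not pass. IFI6, at 11.7 and 18.4 TPM in control Input and 9.61 and 10.8 with ADAR1 siRNA, had overlapping footprint values (59.1 and 60.4 against 51.7 and 69.9). IFI27, IFI35 and NMI had footprint log2 changes of 0.14 ± 0.22, -0.33 ± 0.18 and -0.18 ± 0.17. Over the 6 genes the medians were -0.19 in RNA, -0.25 in footprints and -0.05 in translational efficiency.

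In the group of 8 named here for membrane association, which also holds the secreted LGALS3BP, 7 were below 0 in RNA (median -0.31). In footprints 5 were above 0 (median 0.25), and in translational efficiency 6 were (median 0.59). None of the 8 was called by edgeR. DESeq2 called IFITM3, BST2 and LGALS3BP higher in translational efficiency, where it called 7.58% of all genes in either direction. IFITM3, which blocks fusion of endocytosed virions, was at 588 and 644 TPM in control Input and 533 and 492 with ADAR1 siRNA, a log2 change of -0.28 ± 0.07 (adjusted p = 0.0927). Its footprints were at 555 and 725 TPM in the controls and 848 and 766 with ADAR1 siRNA (log2 change 0.44 ± 0.17, adjusted p = 0.154). Input was thus lower and footprints higher in both ADAR1 siRNA libraries, without overlap in either assay. The authors' ratio went from 0.944 and 1.13 to 1.59 and 1.56, and the interaction was 0.75 ± 0.21 (adjusted p = 0.0767).

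LGALS3BP, a secreted galectin-binding glycoprotein, had the same pattern, with Input at 408 and 395 TPM in the controls and 337 and 343 with ADAR1 siRNA. Its footprints were at 309 and 330.3 TPM in the controls and 360.2 and 411 with ADAR1 siRNA, again without overlap. Its ratio was 0.756 and 0.836 in the controls and 1.07 and 1.20 with ADAR1 siRNA, and the interaction of 0.65 ± 0.15 (adjusted p = 0.0578) had the smallest p of the 38 members without passing the test. BST2, the tether of enveloped virions, was at 189 and 195 TPM in control Input and 154 and 154 with ADAR1 siRNA (log2 change -0.33 ± 0.07, adjusted p = 0.0796). In footprints its TPM values overlapped, at 249 and 280.2 against 269.8 and 287, while its TMM-scaled CPM (counts scaled to library size) did not, at 208 and 229 against 253 and 239 (log2 change 0.17 ± 0.14, adjusted p = 0.495). The ratio of BST2 was 1.32 and 1.44 in the controls and 1.75 and 1.87 with ADAR1 siRNA, with an interaction of 0.53 ± 0.15 (adjusted p = 0.0819).

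IFITM1 and IFITM2, chosen after their values were seen because they belong to the same family as IFITM3, had lower Input values without overlap as well. IFITM1 was at 52.1 and 51.3 TPM in control Input and 26.2 and 34.2 with ADAR1 siRNA (log2 change -0.79 ± 0.18, adjusted p = 0.0853), with footprints of 203 and 193 against 139 and 194 TPM. IFITM2 was at 187 and 178 TPM in control Input and 125 and 147 with ADAR1 siRNA (log2 change -0.44 ± 0.12, adjusted p = 0.101), with overlapping footprints of 87.4 and 75.2 against 108 and 82.7 TPM. The ratio of IFITM1 was 3.89 and 3.77 in the controls and 5.31 and 5.67 with ADAR1 siRNA, and that of IFITM2 was 0.468 and 0.424 in the controls and 0.868 and 0.563 with ADAR1 siRNA. The 3 genes are closely related neighbours on chromosome 11 and had fractional counts in all 8 libraries, so how reads were divided among them is uncertain. Their summed counts, an analysis added after the values were seen, gave -0.35 ± 0.07 in RNA (edgeR adjusted p = 0.0704), 0.32 ± 0.15 in footprints (adjusted p = 0.218) and 0.70 ± 0.18 in translational efficiency (adjusted p = 0.0632).

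PLSCR1, a phospholipid scramblase, had footprints of 21.9 and 23.9 TPM in the controls and 16.4 and 21.3 with ADAR1 siRNA, which did not overlap in TPM. Its TMM-scaled CPM did overlap, at 29.1 and 32.7 against 25.6 and 29.2 (log2 change -0.17 ± 0.18, edgeR adjusted p = 0.594). The lysosomal protein LAMP3 and the receptor transporter RTP4 were low in every library, with footprint values between 0.340 and 2.77 TPM and standard errors of 0.49 to 0.66 on the log2 scale. For RTP4 the control ratios were 0.760 and 4.82, and both ADAR1 siRNA ratios (2.18 and 1.15) lay between them.

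**Figure D5:**
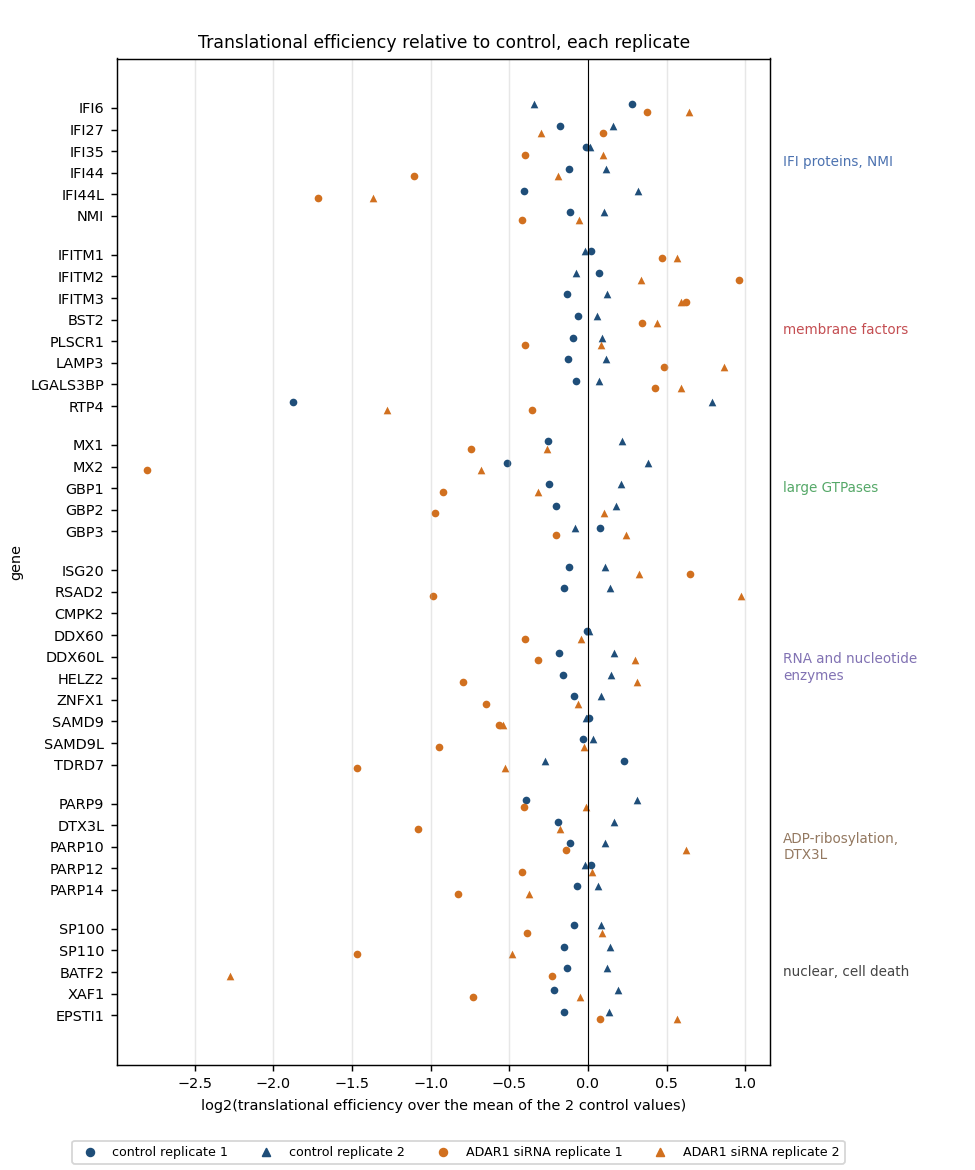
Translational efficiency of 38 members in each replicate as log2 of the ratio to the mean of the 2 control values, grouped by role (CMPK2 is not drawn), with controls in blue and ADAR1 siRNA in orange. For IFI6, ISG20, IFITM1, IFITM2, IFITM3, BST2, LGALS3BP and LAMP3 (the last from few footprints) both ADAR1 siRNA points lie right of both controls. Both lie left for TDRD7, SP110 and PARP14, among others.

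Of the 5 large GTPases, MX1 alone was called lower in footprints by edgeR. MX1, which restricts influenza and other RNA viruses, had control footprints of 2.46 and 3.49 TPM against 1.21 and 1.19 with ADAR1 siRNA, 2.33-fold lower, a log2 change of -1.22 ± 0.28 (adjusted p = 0.0463). Its Input values were 9.65 and 9.86 TPM in the controls and 6.64 and 4.68 with ADAR1 siRNA (log2 change -0.80 ± 0.18, adjusted p = 0.0822). Both assays were without overlap, and the interaction was -0.40 ± 0.32 (adjusted p = 0.502). The footprint call of MX1 was lost without control Ribo-seq replicate 2 (log2 change -0.98) and with limma on log2(TPM + 1) (-0.84, adjusted p = 0.107). DESeq2 did not call MX1, and no adjusted p from DESeq2 was available for it.

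MX2, a nuclear-pore-associated relative of MX1, had a larger footprint estimate of -2.35 ± 0.66 (adjusted p = 0.0723) at levels under 1 TPM in every Ribo-seq library. The guanylate-binding protein GBP3 differed in direction: its Input values were 67.3 and 69.8 TPM in the controls and 99.2 and 76.2 with ADAR1 siRNA (log2 change 0.35 ± 0.11, adjusted p = 0.124). GBP3 footprints were 16.3 and 15.1 TPM against 19.7 and 20.6, higher without overlap (log2 change 0.43 ± 0.16, adjusted p = 0.135), and its ratios overlapped. GBP1, with overlapping Input values, had footprints of 11.6 and 14.9 TPM against 9.14 and 9.56 (log2 change -0.40 ± 0.18, adjusted p = 0.211), and GBP2 overlapped in footprints. GBP1, GBP2 and GBP3 had fractional counts in 5, 4 and 5 of the 8 libraries, so the division of reads among these paralogs is uncertain.

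Among the 9 tested RNA and nucleotide enzymes and RNA-binding factors, 8 were below 0 in footprints (median -0.50) and 6 in RNA (median -0.07), without a call by edgeR. ISG20, a 3′ to 5′ exonuclease that degrades viral RNA, had the lowest RNA estimate of all members, with Input values of 10.8 and 9.81 TPM in the controls and 4.92 and 3.45 with ADAR1 siRNA. This was 2.57-fold lower without overlap, a log2 change of -1.36 ± 0.22 (adjusted p = 0.0647). Its footprints were at 37.4 and 39.9 TPM in the controls and 29.1 and 16.3 with ADAR1 siRNA (log2 change -0.65 ± 0.28, adjusted p = 0.193), also without overlap. The ratio of ISG20 was 3.48 and 4.07 in the controls and 5.90 and 4.72 with ADAR1 siRNA, with an interaction of 0.74 ± 0.43 (adjusted p = 0.336).

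TDRD7, a Tudor-domain protein that limits virus-induced autophagy, had overlapping Input values, at 19.2 and 20.8 TPM in the controls and 22.5 and 18.2 with ADAR1 siRNA (log2 change 0.00 ± 0.12, adjusted p = 0.985). Its footprints did not overlap, at 2.52 and 1.92 TPM against 0.908 and 1.41 (log2 change -0.97 ± 0.26, adjusted p = 0.0639). The ratio went from 0.131 and 0.0923 to 0.0403 and 0.0777, and the interaction was -0.95 ± 0.26 (adjusted p = 0.0725). ZNFX1, a mitochondrial-surface helicase that senses viral RNA and the most abundant of this group in RNA, had overlapping Input values of 66.0 and 64.8 TPM in the controls and 67.7 and 62.8 with ADAR1 siRNA. ZNFX1 footprints were at 7.38 and 8.16 TPM in the controls and 5.13 and 7.12 with ADAR1 siRNA (log2 change -0.26 ± 0.16, adjusted p = 0.37).

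The helicases DDX60 and DDX60L, which are paralogs with fractional counts in 4 of the 8 libraries each, differed in sign in both assays. DDX60 was -0.36 ± 0.15 in RNA and -0.58 ± 0.20 in footprints, and DDX60L 0.26 ± 0.09 and 0.22 ± 0.21. SAMD9 and SAMD9L had footprint changes of -0.50 ± 0.25 and -0.22 ± 0.26, and HELZ2 of -0.40 ± 0.28. For SAMD9L the Input libraries with ADAR1 siRNA stood on either side of the controls, at 24.5 and 14.1 TPM against 16.3 and 16.6. RSAD2, the radical enzyme viperin that makes a chain-terminating nucleotide, likewise had Input values of 1.44 and 0.295 TPM with ADAR1 siRNA against 1.27 and 1.27 in the controls. The RSAD2 and CMPK2 spans overlap by 751 bases in RefSeq, and the strand setting used in counting is not stated.

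The ADP-ribosylation genes were below 0 in footprints in 5 of 5 cases (median -0.32) and in 3 of 5 in RNA (median -0.27), without a call by edgeR. PARP12, a mono-ADP-ribosyltransferase of stress granules and Golgi and the most abundant of the 5 in RNA, had Input values of 29.3 and 30.2 TPM in the controls and 26.3 and 22.5 with ADAR1 siRNA (log2 change -0.30 ± 0.09, adjusted p = 0.119). Its footprints were at 10.0 and 10.1 TPM against 6.63 and 7.70 (log2 change -0.28 ± 0.17, adjusted p = 0.357), and both assays were without overlap. PARP14, a macrodomain enzyme, was 0.04 ± 0.10 in RNA and -0.47 ± 0.18 (adjusted p = 0.14) in footprints. Its ratios, given after its values were seen, were 0.142 and 0.156 in the controls and 0.0842 and 0.115 with ADAR1 siRNA. PARP9 and the ubiquitin ligase DTX3L form a complex, share a promoter region and overlap by 447 bases, and had footprint changes of -0.32 ± 0.22 and -0.47 ± 0.21. For PARP10, whose span overlaps 2 other genes, the footprint change was -0.02 ± 0.20.

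The 5 genes of nuclear bodies, transcription and cell death had medians near 0 in RNA (0.06) and footprints (-0.06), and none was called by edgeR. SP100, a scaffold of PML nuclear bodies, had Input values of 82.3 and 79.6 TPM in the controls and 105 and 90.1 with ADAR1 siRNA, higher without overlap (log2 change 0.27 ± 0.07, adjusted p = 0.0871). SP100 footprints overlapped in TPM, at 27.3 and 29.7 against 28.5 and 33.8 (log2 change 0.14 ± 0.15, adjusted p = 0.589). Its relative SP110 had overlapping Input values (17.8 and 18.1 against 21.0 and 16.8 TPM) and footprints of 2.44 and 3.04 against 1.15 and 1.83 TPM (log2 change -0.79 ± 0.29, adjusted p = 0.135). The ratio of SP110, chosen after its values were seen, was 0.137 and 0.168 in the controls and 0.0551 and 0.109 with ADAR1 siRNA (log2 change -0.82 ± 0.29, adjusted p = 0.127). The spans of SP110 and SP140 overlap by 39486 bases, so reads of the pair may not be separated. XAF1, a pro-apoptotic factor, overlapped in RNA and in footprints. BATF2 and EPSTI1 had Input values of 0.941 to 2.30 TPM, and their footprint standard errors were 0.79 and 0.56.

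The genes that carry the interferon signal to these members were examined as a separate list of 31 ligands, receptors and signalling factors, of which 26 could be tested. None was called in RNA, footprints or translational efficiency with edgeR, and DESeq2 called 0, 1 (lower) and 1 (lower) while limma called 0 in each. Of all genes, edgeR called 0.253%, 3.54% and 0.0463%, and DESeq2 3.55%, 8.15% and 7.58%. At an unadjusted p under 0.05, 1 was higher and 6 lower in RNA, 4 higher and 5 lower in footprints, and 5 higher and 2 lower in translational efficiency. Over all genes those shares were 11.8% and 13.5%, 12.6% and 11.3%, and 13.2% and 9.48%. The medians of the list were -0.04, 0.02 and 0.23. IFNB1, IFNE, IFNL2 and IFNL3 were listed at 0 in all 8 libraries. Among the smallest in p in footprints were the adaptor TICAM1 at 0.75 ± 0.23 (edgeR adjusted p = 0.0887) and the receptor chain IFNGR1 at 0.53 ± 0.17 (adjusted p = 0.097).

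Interferon-stimulated genes outside the members were read the same way, as 23 genes of which 22 could be tested. In RNA, 1 was called lower (ISG15, a ubiquitin-like modifier) and 0 higher, where 0.174% and 0.0791% of all genes were. In footprints 8 were called lower (RIGI, IFIT1, IFIT2, IFIT3, HERC5, ZC3HAV1, TRIM5 and OASL) and 0 higher, where 1.67% and 1.88% of all genes were. In translational efficiency 0 were called, beside 0.0463% of all genes. At an unadjusted p under 0.05, 8 were lower and 1 higher in RNA, 14 lower and 0 higher in footprints, and 10 lower and 1 higher in translational efficiency, where 13.5% and 11.8%, 11.3% and 12.6%, and 9.48% and 13.2% of all genes were. DESeq2 called 4, 10 and 3 lower in the 3 comparisons and 0 higher, beside 3.55%, 8.15% and 7.58% of all genes called in either direction. With limma, 0, 1 and 0 were called, beside 0.00791%, 0.1% and 0.0232% of all genes. The medians were -0.26 in RNA, -0.65 in footprints and -0.51 in translational efficiency, beside -0.25, -0.27 and -0.10 over the members. The difference between these lists was not tested. In the RefSeq windows, the ISRE core was present in 10 of the 16 such genes with a window (62.5%) and in 24 of 33 members (72.7%).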

How the data were processed

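The deposited table gives, for 19892 genes named by NCBI gene number (19669 matched to a symbol), 3 kinds of value for 8 libraries. Estimated counts are unscaled reads per gene as deposited by the authors; 87.02% to 90.11% of them are whole in each library, and the origin of the fractions is not stated. TPM values were scaled by the authors to gene length and library. Translational efficiency is the authors' deposited ratio of Ribo-seq to Input TPM of the same siRNA and number. Per the submitters' processing notes, cutadapt, Bowtie2, STAR and featureCounts were used with GRCh38/hg38; no versions or settings are given.

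Counts were rounded and tested with edgeR 4.0.16 in R 4.3.3 (quasi-likelihood F test, two-sided, TMM scaling, filterByExpr, Benjamini-Hochberg over all genes tested) in the 4 Input libraries, in the 4 Ribo-seq libraries and, for translational efficiency, as the interaction of assay and siRNA over all 8. Genes were called at an adjusted p under 0.05, and errors of log2 fold changes are standard errors. Any gene without an adjusted p from DESeq2 was counted as not called. With 2 libraries on each side, the smallest exact permutation p is 0.333, so none was used. Alternatives were edgeR with DESeq2 size factors or upper-quartile scaling, no filter, a mean count of at least 50, DESeq2 1.42.0, limma 3.58.1 on log2(TPM + 1), a replicate block and leaving out each library; the summed IFITM counts were added after the data were seen.

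The members, lists and tests were chosen with earlier results of these data known. Values in every library are given for members called, for the 3 of smallest p in each comparison and for the most abundant in RNA of each role group; others so described were chosen after their values were seen. Motifs were searched in RefSeq promoter windows of GRCh38.p14 on both strands.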

Additional observations from a re-analysis of the deposited data

Results flagged for a closer look

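IFITM3, LGALS3BP and BST2, among the most abundant members, had lower Input and higher Ribo-seq values in both ADAR1 siRNA libraries than in both controls, on TMM-scaled counts. Taken singly, 29.7% of all genes were lower without overlap in RNA, and 30.1% were higher without overlap in footprints. The share of all genes that met both was not counted. None of the 3 passed the test in RNA (adjusted p 0.0927, 0.0974 and 0.0796) or in footprints (0.154, 0.126 and 0.495, edgeR), and the footprint change of BST2 was 0.17 ± 0.14. The difference between the log2 changes was 0.751 for IFITM3, 0.646 for LGALS3BP and 0.53 for BST2. The test of that difference, the interaction in edgeR, did not pass for any of them, with adjusted p-values of 0.0767, 0.0578 and 0.0819. DESeq2 called all 3 higher, where it called 7.58% of all genes in either direction. For BST2 the footprint values did not overlap on TMM-scaled counts but did in TPM.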

How the results depend on the processing

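With 2 libraries a group, the number of members called depended on the processing, while the median log2 fold change stayed below 0 in each comparison under the alternatives run. In RNA, 0 members were called under each scaling, filter and tool, 7 with the replicate block and 0 to 18 when 1 library was left out. The RNA median of -0.254 was -0.0789 with the count minimum of 50 (mean over libraries) and -0.152 with limma, and ranged from -0.299 to -0.0119 with 1 library left out. In footprints, the 2 calls became 5 without a filter on low counts, 1 with DESeq2, 0 with limma on log2(TPM + 1), 8 with the replicate block and 0 to 14 with 1 library left out. The footprint median of -0.271 was -0.302 with DESeq2 size factors in edgeR and with DESeq2 itself, -0.222 with upper-quartile scaling, -0.205 with the count minimum of 50, and -0.318 to -0.191 with 1 library left out. In translational efficiency, the 0 calls became 4 of 39 without a filter (5.04% of all genes called) and 4 of 38 with DESeq2 (7.58%). With the replicate block of siRNA and number together they became 4 of 38 (9.02%). With 1 library left out, the median ranged from -0.218 to -0.0428. The cause of these differences was not tested.

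Same-numbered libraries deviated together little across the siRNAs (correlation 0.0129 in Input, 0.039 in Ribo-seq) and between the assays of the controls (0.0125), and more between the assays with ADAR1 siRNA (0.395). With 2 pairs these numbers were not taken to pair the libraries, and the replicate block results stand here only: 7 members in RNA, 8 in footprints and 0 in translational efficiency, with medians of -0.262, -0.273 and -0.0946. With that block, 8.66%, 17.5% and 3.46% of all genes were called.

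Estimates near 0 changed sign under single alternatives: IFI44L in RNA (0.144 with limma), PARP10 in footprints (0.0289 with upper-quartile scaling), and in translational efficiency DDX60L (0.00649 with upper-quartile scaling), PARP12 (-0.0125 with the count minimum of 50, -0.156 with limma) and HELZ2 (0.0574 with limma). With 1 library left out, the RNA log2 change ranged from -0.115 to 0.113 for TDRD7, -0.323 to 0.192 for IFI44L, -0.0795 to 0.155 for PARP14 and -0.0759 to 0.187 for SP110. The footprint change ranged from -0.186 to 0.0934 for PARP10 and -0.0757 to 0.249 for IFI6, and the translational efficiency change from -0.098 to 0.191 for GBP3, -0.0855 to 0.141 for PARP12, -0.194 to 0.192 for DDX60L and -0.385 to 0.198 for HELZ2.

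Over all genes, the 32 RNA calls were 11 with upper-quartile scaling, 95 without a filter, 73 at a mean count of at least 50, 449 with DESeq2, 1 with limma, 1095 with the replicate block and 0 to 5420 with 1 library left out. The 425 footprint calls were 1693 without a filter, 978 with DESeq2 (391 higher, 587 lower), 12 with limma, 2102 with the replicate block and 77 to 3415 with 1 library left out. The 6 translational efficiency calls were 854 without a filter, 2 at a mean count of at least 50, 982 with DESeq2, 3 with limma, 448 with the replicate block, 1169 with the block of siRNA and number, and 0 to 2252 with 1 library left out. Depth limited MX2, LAMP3, RTP4 and BATF2, whose few footprints leave wide errors, and left CMPK2 untested.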
